A study of Mus musculus with 6 samples.

Results

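The genes of the major histocompatibility complex (MHC) and its peptide-loading machinery were followed in mouse acute myeloid leukaemia cells that had lost Chaf1b, a subunit of the chromatin assembly factor CAF-1. Members were the rows whose symbol starts with H2-, the mouse name of the complex, together with B2m, Cd74, Ciita, Nlrc5, Tap1, Tap2, Tapbp, Tapbpl and Erap1. This gave 49 of the 35869 symbols in the files: 2 classical class I genes, 27 nonclassical class I genes, 10 class II genes, 9 accessory genes, and H2-Ke6, which is named for its place in the region and encodes a dehydrogenase.

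MHC class I molecules pair a heavy chain with β2-microglobulin and display peptides made by the proteasome, which the TAP transporter carries into the endoplasmic reticulum. Class II molecules pair an α with a β chain, travel with the invariant chain and exchange it for peptides from endosomes with the help of H2-DM. Class II genes are best known from dendritic cells, B cells and macrophages, and their promoters are switched on by the coactivator CIITA, while NLRC5 does the same for class I.

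Polyadenylated RNA was sequenced from 6 libraries. The 3 KO libraries came from MLL-AF9 retrovirally transformed leukaemia cells with floxed Chaf1b alleles and the CreERT2 recombinase, given β-estradiol for 48 hours to delete Chaf1b. The 3 WT libraries came from cells with the same floxed alleles and CreERT2 that received ethanol vehicle, so WT names the undeleted state and not an unmodified cell. All cells grew with stem cell factor (100 ng/mL), interleukin 6 (50 ng/mL) and interleukin 3 (20 ng/mL). The ligand and the deletion cannot be told apart. How many clones or cultures stand behind the replicates is unknown, and p-values rest on a spread that may be technical only.

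Values were TPM, a transcript level corrected for length and scaled to the same total in each library, which keeps no depth, so that the counting error is unknown. Where the values of 3 libraries of a group are given, they follow the replicate numbers. Chaf1b itself had 17.7, 14.4 and 14.2 TPM in KO, against 48.6, 49.0 and 50.6 TPM in WT, and fell by 1.62 on the log2 scale (limma adjusted p = 0.0058). WT replicate 1 stood apart from the other controls: its log2 profile had a Pearson's r of 0.984 with WT replicate 2, against 0.998 between WT replicates 2 and 3 (across genes, which are not independent). Its column header carries a note on a replacement that no label explains. KO replicate 1 stood apart too, with r = 0.991 to KO replicate 2. Markers of myeloid leukaemia (Hoxa9, Meis1, Kit, Spi1 and others) passed the filter on low values for 11 of 11 genes, of which 3 rose (Mpo, Elane and Cebpa) and 2 fell (Hoxa9 and Hoxa10) by limma. Mpo, a granule enzyme of myeloid precursors, had 1018, 2311 and 2233 TPM in KO, against 19.4, 128 and 83.8 TPM in WT. The part of this shift in the MHC levels was not tested.

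A filter that asked for 1 TPM or more in 3 or more of the 6 libraries kept 29 of the 49 members and 13575 genes in all. These were tested with limma on log2(TPM + 1), with p-values adjusted over all of them. At an adjusted p under 0.05, 11 members rose in KO and 1 fell. Among all tested genes 12.9% rose and 6.11% fell. Median-ratio scaling of the libraries gave 10 members that rose and 2 that fell, of 1675 genes that rose and 1614 that fell; quantile normalization gave 10 and 2 members, of 1346 and 1722 genes. H2-Aa and H2-Q5 passed the filter only through their KO values and so had to differ; of the other 27 tested members, 9 rose. KO values lay above all WT values for 14 members (23.4% of all tested genes) and below them for 3 (19.5% of all tested genes). The median log2 fold change was 0.14 over the tested members and 0.01 over all tested genes. Since these are bulk samples, a change in the number of cells that express a gene and a change in RNA per cell cannot be told apart.

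By class, 0 of 2 classical class I genes rose by limma (0 at an unadjusted p under 0.05), with a median log2 fold change of 0.07. Of 11 tested nonclassical class I genes 5 rose, with a median of 0.37. Without H2-Q5, which the filter kept only through its KO values, 4 of 10 rose. Of 8 tested class II genes 3 rose, with a median of 0.24. Without H2-Aa, kept in the same way, 2 of 7 rose. Of 7 tested accessory genes 3 rose and 1 fell, with a median of 0.00. WT replicate 1 decided much of this: without it, 2 of 2 classical, 6 of 11 nonclassical, 5 of 8 class II and 4 of 7 accessory genes rose, in all 17 members, while 2 fell. In that fit 21.6% of all tested genes rose and 14.2% fell, and the 17 members include H2-Aa and H2-Q5. They also include H2-Q10 and Cd74, whose only control at 1 TPM or more was WT replicate 1. Without that library these genes too reached 1 TPM only in KO, so their calls in this fit carry the same limit. Leaving out both KO replicate 1 and WT replicate 1 gave 18 members that rose and 2 that fell, with 28.4% and 27.3% of all tested genes. Without KO replicate 2 only Tapbpl and H2-Aa were called (both higher), and without KO replicate 3, WT replicate 2 or WT replicate 3 limma called 0 members, with 15, 14 and 16 at an unadjusted p under 0.05; of all genes these fits called 109, 0, 25 and 15.

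**Figure D1:**
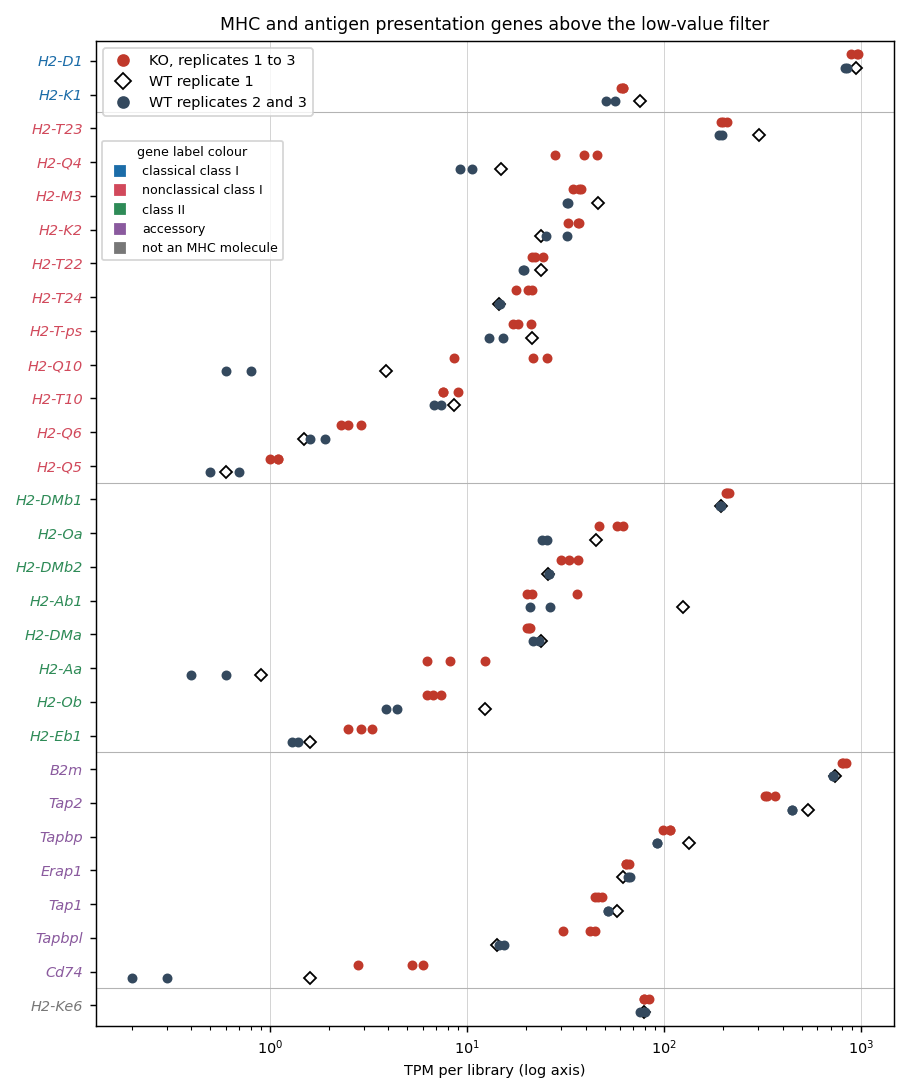
TPM of the 29 tested members in each library, on a log axis, with KO replicates (red) above WT replicates (dark; WT replicate 1 as an open diamond) in each row and genes grouped by class. H2-D1 and B2m sit near the top of the scale in all libraries, while H2-Aa, H2-Q10 and Cd74 are below 4 TPM in every WT library and above 2 TPM in every KO library.

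H2-K1 and H2-D1 encode the classical class I heavy chains that present peptides to CD8+ T cells. H2-D1 was at 891, 964 and 956 TPM in KO, against 941, 828 and 845 TPM in WT, and made up 92.6% to 94.2% of the class in every library. The groups overlapped because WT replicate 1 lay between the KO values. Limma gave H2-D1 a log2 fold change of 0.11 (SE 0.06, adjusted p = 0.26), and of 0.16 without WT replicate 1 (SE 0.05, adjusted p = 0.046). H2-K1 was at 61.9, 61.9 and 60.4 TPM in KO, against 75.2, 50.9 and 56.3 TPM in WT. Here WT replicate 1 was the highest of the 6 libraries and the other controls were the lowest. The log2 fold change of H2-K1 was 0.03 (SE 0.14, adjusted p = 0.88) with all libraries and 0.19 (SE 0.05, adjusted p = 0.045) without WT replicate 1, but leaving out WT replicate 2 gave -0.08 and leaving out WT replicate 3 gave -0.01. Summed over both genes, the classical level was 998 ± 40.1 TPM in KO and 932 ± 73.6 TPM in WT (SD, n = 3 each), with 1016 TPM in WT replicate 1 and a mean of 890 TPM in WT replicates 2 and 3. H2-K2, a transcribed pseudogene beside H2-K1 that was counted with the nonclassical genes, was at 37.0, 36.6 and 32.6 TPM in KO, against 23.8, 25.3 and 32.2 TPM in WT (log2 fold change 0.38, adjusted p = 0.069).

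B2m, the light chain shared by all class I molecules (mm10 chromosome 2, 122147687 to 122153082), was at 798, 836 and 811 TPM in KO, against 734, 721 and 717 TPM in WT. No KO value overlapped a WT value, and B2m rose by 0.17 on the log2 scale (SE 0.04, limma adjusted p = 0.029), a mean of 815 ± 19.4 TPM in KO and 724 ± 8.64 TPM in WT (SD, n = 3). This small change lost its call with median-ratio scaling of the libraries (adjusted p = 0.050) and without the mean-variance trend (adjusted p = 0.064). The opposite strand carries Patl2, which was at or below 0.2 TPM in every library.

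The peptide-loading genes did not move together. Tap2 encodes one subunit of the peptide transporter (chromosome 17, 34204479 to 34216321) and was at 367, 325 and 332 TPM in KO, against 538, 448 and 445 TPM in WT. It fell by 0.48 on the log2 scale (SE 0.09, limma adjusted p = 0.022) and by 0.39 without WT replicate 1, its highest control (adjusted p = 0.019). Tap1, the partner subunit, was lower in each KO library too, at 48.2, 46.0 and 44.5 TPM in KO, against 57.9, 52.2 and 52.0 TPM in WT. Its log2 fold change was -0.22 (SE 0.06, adjusted p = 0.056), and it fell by 0.17 without WT replicate 1 (adjusted p = 0.046). The level of Tap2 was several times that of Tap1 in all 6 libraries.

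Tapbpl encodes TAPBPR, which edits the peptides bound to class I (chromosome 6, 125223927 to 125231860). It was at 30.9, 44.5 and 42.0 TPM in KO, against 14.3, 14.5 and 15.5 TPM in WT. It rose by 1.33 on the log2 scale (SE 0.14, limma adjusted p = 0.011), a ratio of means of 2.65, and WT replicate 1 was in no way apart for this gene. The gene span of Tapbpl overlaps that of Vamp1, on the opposite strand, over 7928 bases (GENCODE M21). In RefSeq Vamp1 ends at 125222306, before Tapbpl starts. Of the 100-base words in the GENCODE transcripts of Tapbpl, 1.0% are also found in another gene, on either strand. No source says if counting used the strand, and the part of Vamp1 reads in the Tapbpl value was not tested. Vamp1 had 11.6, 12.5 and 12.0 TPM in KO, against 6.8, 10.6 and 10.8 TPM in WT (adjusted p = 0.17). Tapbp (tapasin), the chaperone that bridges class I to TAP, was at 98.6, 107 and 107 TPM in KO, against 133, 91.6 and 92.5 TPM in WT. Its log2 fold change was 0.00 (adjusted p = 1.0) with all libraries and 0.18 without WT replicate 1 (adjusted p = 0.048), and it overlaps the antisense gene Gm19412, which had the same outlying WT replicate 1 (160 TPM, against 107 TPM in each of WT replicates 2 and 3). Erap1, which trims peptides in the endoplasmic reticulum, had 63.9, 66.8 and 64.2 TPM in KO, against 62.1, 67.0 and 65.4 TPM in WT (log2 fold change 0.00, adjusted p = 0.97).

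**Figure D2:**
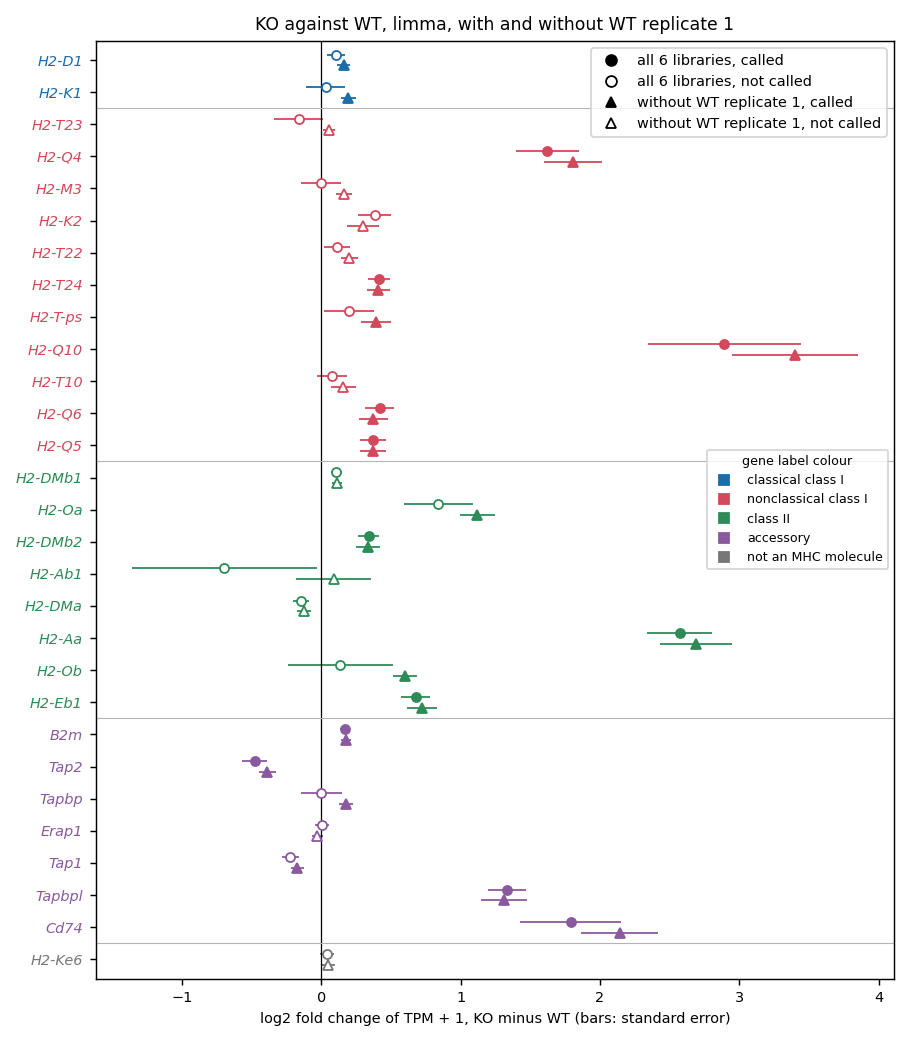
Log2 fold change of TPM + 1 (KO minus WT, bars are standard errors) for the 29 tested members with all 6 libraries (circles) and without WT replicate 1 (triangles); filled symbols passed an adjusted p under 0.05. H2-Q10, H2-Aa, Cd74, H2-Q4 and Tapbpl lie above 1 in both fits, and Tap2 is the only filled circle below 0.

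Nonclassical class I genes lie in the Q, T and M clusters of chromosome 17. In the Q cluster (35320525 to 35474563) 4 of 7 genes were tested and rose, but H2-Q5 was kept by the filter only through its KO values, which leaves 3 of 3. In the T cluster (36003471 to 36190151) 1 of 5 tested genes rose, against 12.9% of all tested genes, and in the M cluster (36284281 to 37483554) 0 of 1 tested by limma (0 at an unadjusted p under 0.05). The summed Q cluster level was 41.3, 76.5 and 65.8 TPM in KO, against 22.0, 13.3 and 14.4 TPM in WT. WT replicate 1 was the highest control and KO replicate 1 the lowest KO library, without overlap. The summed T cluster was 271 ± 12.8 TPM in KO and 290 ± 71.1 TPM in WT (SD, n = 3), with 372 TPM in WT replicate 1 alone.

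H2-Q10, known in mice as a secreted class I molecule of the liver (35470089 to 35474563), had 8.6, 25.4 and 21.7 TPM in KO, against 3.9, 0.6 and 0.8 TPM in WT. It rose by 2.89 on the log2 scale (SE 0.55, limma adjusted p = 0.023) and by 3.40 without WT replicate 1. In the latter fit only its KO values reached 1 TPM. KO replicate 1 had less than the other KO libraries, and WT replicate 1 was 5.57 times the mean of the other controls. H2-Q4 (35379617 to 35384674) had 28.1, 45.8 and 39.2 TPM in KO, against 14.9, 9.2 and 10.6 TPM in WT, and rose by 1.62 (SE 0.23, adjusted p = 0.014). The order of libraries within each group was the same as for H2-Q10. H2-Q6, which encodes a Qa-2 antigen, had 2.3, 2.9 and 2.5 TPM in KO, against 1.5, 1.9 and 1.6 TPM in WT, and rose by 0.42 (SE 0.10, adjusted p = 0.041). The pseudogene H2-Q5 had 1.0, 1.1 and 1.1 TPM in KO, against 0.6, 0.7 and 0.5 TPM in WT, and rose by 0.37 (SE 0.09, adjusted p = 0.043). For neither gene did WT replicate 1 or KO replicate 1 stand apart. Both of these weak genes lost their call under quantile normalization, where H2-Q5 turned to -0.17 (adjusted p = 0.24) and H2-Q6 had an adjusted p of 0.49.

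Q genes are close copies, so reads can be divided wrongly between them. Of all 100-base words (the read length) in the GENCODE M21 transcripts of a gene, the share also found in another gene was 14.0% for H2-Q5, 13.0% for H2-Q6, 8.0% for H2-Q10 and 14.1% for H2-Q4. The antisense neighbour Gm11131 holds 11.8% of the words of H2-Q4. For H2-D1 it was 3.6% and for H2-K1 1.0%, and for H2-Aa, H2-Ab1, H2-Eb1, H2-T24, Cd74 and B2m it was 0.0%. No source used here says how reads that match several places were counted. Erap1 shares words with its neighbour Cast.

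Promoter windows of a gene that rose most, its Q neighbour and the abundant class I gene are shown because they differ in a known element. Each is the RefSeq window on GRCm38.p6 from 250 bases before to 50 after the start site, 5′ to 3′ on the gene's plus strand. Capitals mark matches on either strand to the Y box (CCAAT, the NF-Y site) and to a core of the X1 box (CCNNGNAAC, the RFX site); no printed match overlaps another.
H2-Q10, chr17:35469839-35470138: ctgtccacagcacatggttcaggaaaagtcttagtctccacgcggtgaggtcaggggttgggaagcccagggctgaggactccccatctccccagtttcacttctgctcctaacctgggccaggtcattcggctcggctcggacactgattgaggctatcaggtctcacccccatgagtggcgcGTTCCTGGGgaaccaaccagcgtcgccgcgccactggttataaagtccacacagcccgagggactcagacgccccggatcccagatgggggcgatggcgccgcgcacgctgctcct
H2-Q4, chr17:35379367-35379666: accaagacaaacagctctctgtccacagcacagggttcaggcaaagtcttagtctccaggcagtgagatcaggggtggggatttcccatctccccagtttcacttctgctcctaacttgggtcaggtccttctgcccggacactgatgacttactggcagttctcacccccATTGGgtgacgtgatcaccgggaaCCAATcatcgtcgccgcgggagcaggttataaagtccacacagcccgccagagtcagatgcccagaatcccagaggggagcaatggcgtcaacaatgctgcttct
H2-D1, chr17:35262844-35263143: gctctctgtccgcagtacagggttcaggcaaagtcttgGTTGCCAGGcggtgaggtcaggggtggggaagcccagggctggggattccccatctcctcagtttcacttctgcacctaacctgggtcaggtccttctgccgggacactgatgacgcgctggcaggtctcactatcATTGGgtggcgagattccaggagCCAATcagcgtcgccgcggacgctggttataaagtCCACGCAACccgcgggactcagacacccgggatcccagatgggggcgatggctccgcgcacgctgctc
H2-Q4 and H2-D1 each held an inverted and a direct Y box at bases -79 and -55 and at bases -76 and -53 from the start, and H2-Q10 held neither. The capitals of H2-Q10 mark an inverted X1 match at base -66, and H2-D1 held an inverted one at -212 and a direct one at -18. A Y box on either strand was in 18 of 21 nonclassical, 2 of 2 classical and 8 of 8 class II genes with a window, and in 37.4% of all 32851 windows. These are letter matches, and no binding was measured.

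Among the T and M genes, H2-T24 (36003471 to 36020800) was the one that rose. It had 17.8, 21.4 and 20.4 TPM in KO, against 14.5, 14.7 and 14.6 TPM in WT, and its log2 fold change of 0.42 (SE 0.08, limma adjusted p = 0.022) was 0.41 without WT replicate 1. The antisense gene A930015D03Rik overlaps H2-T24, H2-T23 and H2-T22 and was at 5.3, 7.5 and 5.9 TPM in KO, against 6.7, 4.6 and 4.5 TPM in WT. H2-T23 encodes Qa-1, the ligand of the NKG2A receptor of natural killer cells, and was the most abundant nonclassical gene. It was at 195, 208 and 199 TPM in KO, against 304, 197 and 190 TPM in WT. Its log2 fold change was -0.16 (SE 0.18, adjusted p = 0.54) with all libraries and 0.05 (adjusted p = 0.36) without WT replicate 1. H2-M3, which presents formylated bacterial peptides, also had its highest value in WT replicate 1. It was at 38.1, 37.0 and 34.4 TPM in KO, against 46.4, 32.2 and 32.7 TPM in WT. Its KO values lay above WT replicates 2 and 3, while those of H2-T23 overlapped them. The log2 fold change of H2-M3 was -0.00 (limma adjusted p = 0.99) with all libraries and 0.16 (adjusted p = 0.071) without WT replicate 1. H2-T22 encodes a ligand of some γδ T cells. H2-T10 is known for the same role, but RefSeq lists it as a transcribed pseudogene. H2-T22 had 21.4, 24.2 and 22.1 TPM in KO, against 23.7, 19.6 and 19.3 TPM in WT (log2 fold change 0.11, adjusted p = 0.43). H2-T10 had 7.6, 9.0 and 7.6 TPM in KO, against 8.6, 7.4 and 6.8 TPM in WT (log2 fold change 0.08, adjusted p = 0.63). Both overlapped between the groups through WT replicate 1. H2-T-ps had 17.2, 21.1 and 18.2 TPM in KO, against 21.5, 13.0 and 15.2 TPM in WT (log2 fold change 0.20, adjusted p = 0.46), and rose by 0.39 without WT replicate 1 (adjusted p = 0.045). H2-T22 and H2-T10 shared 31.5% and 28.1% of their words with other genes.

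**Figure D3:**
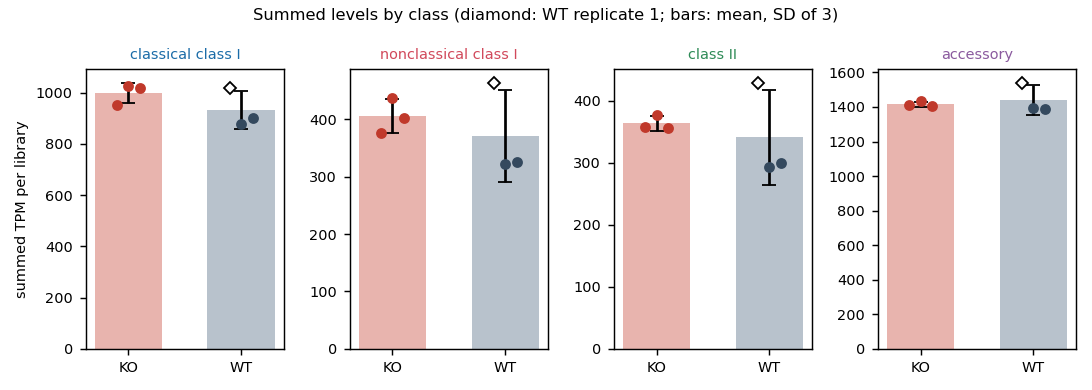
Summed TPM of all members of each class in every library (points), with the mean and SD of 3 KO libraries (left) and 3 WT libraries (right; open diamond, WT replicate 1). WT replicate 1 is the highest WT value in all 4 panels, and in the nonclassical, class II and accessory panels it is above every KO value.

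The class II genes (chromosome 17, 34092379 to 34344645) encode the chains that reach the cell surface and the endosomal H2-DM and H2-O chains. H2-DMb1 alone made up 45.4% to 65.6% of the summed class level in each library. H2-Aa, the α chain of the I-A molecule (34282744 to 34287823), had 6.3, 12.3 and 8.2 TPM in KO, against 0.9, 0.4 and 0.6 TPM in WT. It rose by 2.57 on the log2 scale (SE 0.23, limma adjusted p = 0.011), which was 2.69 without WT replicate 1. The filter kept H2-Aa only through these KO values, so it had to differ. H2-Eb1, the β chain of I-E, had 2.5, 2.9 and 3.3 TPM in KO, against 1.6, 1.4 and 1.3 TPM in WT, and rose by 0.68 (SE 0.11, adjusted p = 0.016; 0.052 under quantile normalization). H2-Ab1, the β chain that pairs with H2-Aa, behaved differently from its partner. It had 36.0, 21.5 and 20.2 TPM in KO, against 124, 20.9 and 26.3 TPM in WT. WT replicate 1 was 5.26 times the mean of the other controls and KO replicate 1 was the highest of its group, while the remaining libraries lay close together. The log2 fold change of H2-Ab1 was -0.70 (SE 0.66, adjusted p = 0.48) and turned to 0.09 (SE 0.27, adjusted p = 0.81) without WT replicate 1. The level of the β chain exceeded that of the α chain of I-A in every library, and the margin in TPM was smallest in KO replicates 2 and 3.

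H2-DM loads peptides by releasing the invariant chain fragment, and H2-O restrains it. H2-DMb1, the most abundant class II gene, was at 208, 213 and 207 TPM in KO, against 195, 193 and 194 TPM in WT. The groups did not overlap, but the difference of 0.11 on the log2 scale missed the threshold (SE 0.04, limma adjusted p = 0.085). H2-DMb2 was at 30.2, 36.7 and 32.9 TPM in KO, against 25.8, 26.0 and 26.2 TPM in WT, and rose by 0.34 (SE 0.08, adjusted p = 0.033); it shares 10.3% of its words with H2-DMb1. H2-DMa, the α chain, had 21.0, 20.6 and 20.1 TPM in KO, against 23.7, 23.3 and 21.7 TPM in WT (log2 fold change -0.15, SE 0.06, adjusted p = 0.11). It was the one class II gene whose KO values lay below all WT values. H2-Oa was at 46.6, 61.8 and 57.8 TPM in KO, against 45.0, 24.1 and 25.5 TPM in WT. Its log2 fold change was 0.84 (SE 0.25, adjusted p = 0.059), and it rose by 1.12 without WT replicate 1 (SE 0.13, adjusted p = 0.019). H2-Oa overlaps the antisense gene BC051537, which had 13.1, 17.9 and 16.6 TPM in KO, against 12.2, 6.2 and 6.6 TPM in WT, so the source of the reads is uncertain. H2-Ob was at 6.7, 7.4 and 6.3 TPM in KO, against 12.4, 4.4 and 3.9 TPM in WT. Its log2 fold change was 0.14 (adjusted p = 0.82), and it rose by 0.60 without WT replicate 1 (adjusted p = 0.019), whereas leaving out WT replicate 2 gave -0.06 and leaving out WT replicate 3 gave -0.13.

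Cd74, the invariant chain, had 2.8, 6.0 and 5.3 TPM in KO, against 1.6, 0.2 and 0.3 TPM in WT. It rose by 1.79 on the log2 scale (SE 0.36, limma adjusted p = 0.026) and by 2.14 without WT replicate 1. In the latter fit only its KO values reached 1 TPM. Even in KO its level stayed far below that of H2-DMb1 and H2-Oa. Ciita was listed at 0 TPM in all 6 libraries, and Nlrc5 had 0.1, 0.2 and 0.2 TPM in KO, against 0.1, 0 and 0 TPM in WT. Neither coactivator passed the filter or was tested.

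Promoter windows of 4 class II genes are shown on the same terms, the chains that rose first and then the endosomal genes. All hold an inverted Y box (ATTGG on the gene's strand) near the start.
H2-Aa, minus strand, chr17:34287774-34288073: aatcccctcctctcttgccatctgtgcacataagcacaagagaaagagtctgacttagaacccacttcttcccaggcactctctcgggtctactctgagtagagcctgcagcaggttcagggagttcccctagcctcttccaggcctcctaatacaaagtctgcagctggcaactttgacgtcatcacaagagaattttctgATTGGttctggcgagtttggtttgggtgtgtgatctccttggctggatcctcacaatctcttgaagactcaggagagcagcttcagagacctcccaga
H2-Eb1, plus strand, chr17:34305617-34305916: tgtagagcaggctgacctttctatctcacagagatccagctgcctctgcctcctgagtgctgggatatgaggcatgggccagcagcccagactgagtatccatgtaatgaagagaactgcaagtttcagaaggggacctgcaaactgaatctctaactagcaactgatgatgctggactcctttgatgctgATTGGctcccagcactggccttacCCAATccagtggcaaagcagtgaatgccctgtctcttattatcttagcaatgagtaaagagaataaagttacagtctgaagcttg
H2-DMb1, plus strand, chr17:34152941-34153240: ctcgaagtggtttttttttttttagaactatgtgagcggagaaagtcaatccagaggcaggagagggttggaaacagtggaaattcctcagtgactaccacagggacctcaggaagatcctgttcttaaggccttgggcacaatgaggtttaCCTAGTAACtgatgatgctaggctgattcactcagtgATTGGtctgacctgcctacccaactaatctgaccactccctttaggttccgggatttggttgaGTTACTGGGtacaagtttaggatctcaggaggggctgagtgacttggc
H2-Oa, plus strand, chr17:34092129-34092428: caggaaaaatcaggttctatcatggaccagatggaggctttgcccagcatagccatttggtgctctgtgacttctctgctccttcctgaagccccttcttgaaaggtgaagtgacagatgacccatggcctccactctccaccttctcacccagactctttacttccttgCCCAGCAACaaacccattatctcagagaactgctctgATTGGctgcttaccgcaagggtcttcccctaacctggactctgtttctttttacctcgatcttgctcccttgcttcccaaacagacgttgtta
The first base of the inverted Y box lay at -48 in H2-Aa, -59 in H2-Eb1, -61 in H2-DMb1 and -43 in H2-Oa. An X1 core match stood upstream of it at -98 in H2-DMb1 and -80 in H2-Oa, and H2-DMb1 held another, inverted, at 3. H2-Aa and H2-Eb1 had no X1 match by these exact letters, and 4 of 8 class II genes and 15.1% of all windows did. Upstream of their inverted Y box, gctggcaac in H2-Aa and actagcaac in H2-Eb1 differ from the X1 pattern only at the first base. A missing match is therefore no sign that the site is absent. An interferon-stimulated response element (ISRE, searched by exact letters on both strands) was found in the windows of B2m, Erap1, H2-T23 and H2-T22. That is 4 of 36 members with a window, and 3.44% of all windows held one. The printed windows of H2-D1, H2-Q4 and H2-Q10 each hold a stretch that departs from the inverted ISRE pattern only in its last bases. For the ISRE too, a missing match is no sign that the element is absent.

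**Figure D4:**
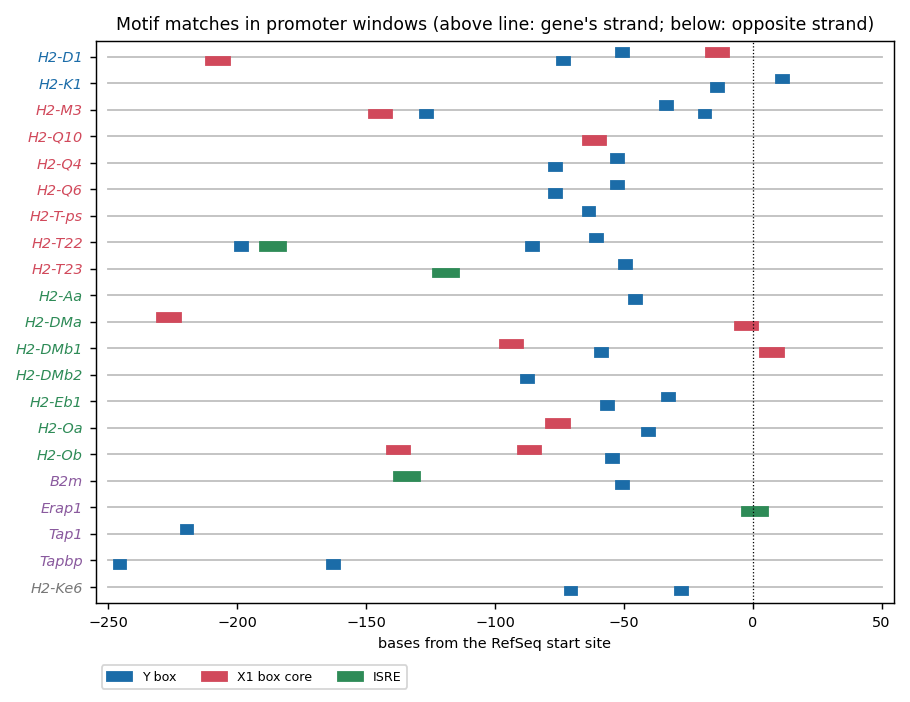
Matches to the Y box (blue), X1 box core (red) and interferon-stimulated response element (green) by distance from the RefSeq start site, for tested members with a promoter window; boxes above a line are on the gene's strand and boxes below it on the opposite strand. In H2-D1, H2-Q4, H2-Q6, H2-T22, H2-Ke6, B2m and 6 class II genes an inverted Y box starts between bases -90 and -43. H2-Q10 and Erap1 have no Y box, and H2-T23, H2-T-ps and Tap1 have only a direct one. In Tapbp, H2-K1, H2-M3 and H2-DMa no inverted one starts in this range.

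WT replicate 1 was the highest control for 21 of the 29 tested members (72.4%, against 45.8% of all tested genes). It was at least 1.5 times the mean of WT replicates 2 and 3 for 9 members (31.0%, against 8.21% of all tested genes). These were 4 nonclassical genes (H2-Q10, H2-T23, H2-T-ps and H2-Q4), 4 class II genes (H2-Ab1, H2-Ob, H2-Oa and H2-Aa) and Cd74. Relative to the KO values, WT replicate 1 lay above all of them for 10 members, within their range for 4 and below them for 15. For Tapbpl, H2-T24, H2-Q6, H2-Q5 and H2-DMb2 it was between 0.857 and 1.00 times their mean, and these members rose with and without it. KO replicate 1 was the lowest KO library for 20 members (69.0%, against 37.9% of all tested genes).

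**Figure D5:**
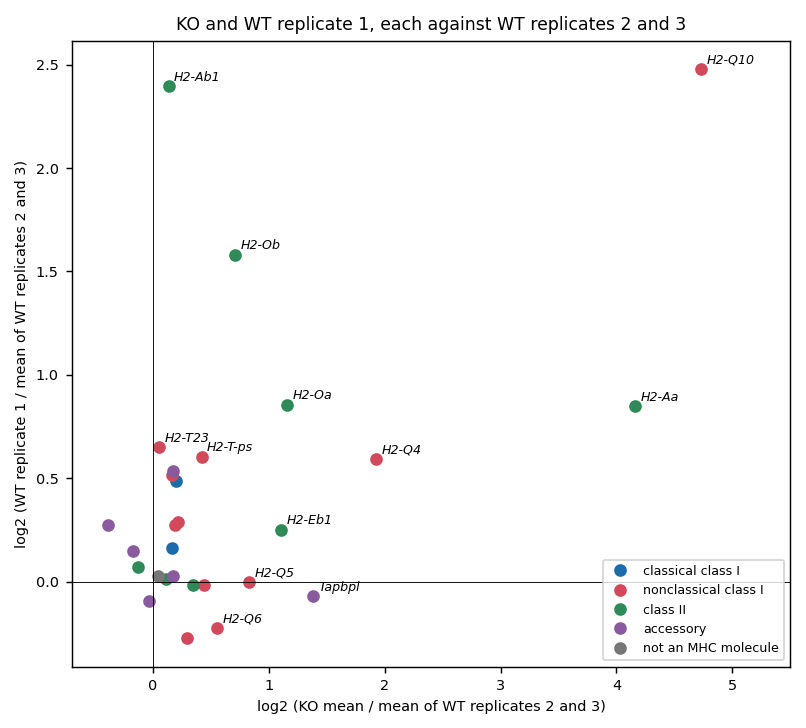
For each tested member except Cd74, whose WT replicates 2 and 3 average 0.25 TPM, the KO mean (horizontal) and WT replicate 1 (vertical) are plotted as log2 ratios to the mean of WT replicates 2 and 3. H2-Q10 and H2-Aa lie far to the right, and H2-Q10 is also the highest point (WT replicate 1 at 5.57 times the mean of WT replicates 2 and 3). H2-Ab1 lies just below it in height (5.26 times) with a log2 KO ratio near 0. H2-Ob lies high with a KO mean 1.64 times that of WT replicates 2 and 3. Tapbpl, H2-Q5 and H2-Q6 lie to the right of 0 on the horizontal axis and at or below 0 on the vertical one.

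The remaining 20 members stayed below the filter and were not tested. Ciita, H2-M1, H2-M2, H2-M9 and H2-M11 were listed at 0 in every library. H2-Bl, a transcribed pseudogene, was the only one to reach 1 TPM, at 0.5, 1.1 and 1.0 TPM in KO, against 0.2 TPM in each WT library. The other 14 were at or below 0.9 TPM throughout. H2-M10.1, H2-M10.4, H2-M10.5 and H2-M5 were above 0 in each KO library, at 0.1 to 0.5 TPM, and at 0 in each WT library, a pattern seen in 4.18% of all 22294 genes below the filter. The reverse was seen in 0.0718% of those genes and in 0 members. H2-Ke6 had 78.9, 83.7 and 79.4 TPM in KO, against 79.6, 80.5 and 75.4 TPM in WT (log2 fold change 0.04, limma adjusted p = 0.61), and 61.6% of its words also lie in Gm20427.

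Other genes of the antigen presentation pathway were read from 7 lists. Of 51 tested genes 10 rose and 3 fell, against 12.9% and 6.11% of all tested genes. Of the 7 lists, class I-like genes outside the H2 region had the most calls, with 6 of 8 tested higher and a median log2 fold change of 1.08. Mr1, which presents vitamin B metabolites, rose to 6.23 ± 1.94 TPM in KO, against 1.40 ± 0.61 TPM in WT (SD, n = 3; limma adjusted p = 0.017). Hfe, a regulator of iron uptake, rose by 1.44 on the log2 scale (adjusted p = 0.014). Raet1d and Ulbp1, both ligands of the NKG2D receptor, rose by 2.06 (adjusted p = 0.015) and 0.72 (adjusted p = 0.014). In contrast, of 5 genes of the immunoproteasome and its activator PA28 (Psme1 and Psme2), 2 fell and none rose. Psmb8, which lies between Tap1 and Tap2, had 528, 444 and 464 TPM in KO, against 639, 643 and 619 TPM in WT. Its log2 fold change was -0.41 (limma adjusted p = 0.019), and Psmb10 fell by 0.24 (adjusted p = 0.038). Psmb9, the third immunoproteasome subunit, was lower in each KO library but not called (-0.27, adjusted p = 0.080). Among 13 interferon signalling genes Socs1 rose by 0.42 (adjusted p = 0.020) and Irf8 fell by 1.11 (adjusted p = 0.028). Of 6 genes of class II antigen processing Ifi30, the lysosomal thiol reductase, rose by 0.38 (adjusted p = 0.026), and 5 rose without WT replicate 1, where 21.6% of all tested genes rose. The 7 class II promoter factors, among them Rfx5 and the NF-Y subunits, had 0 calls by limma, with 1 at an unadjusted p under 0.05. Hspa5 was the 1 of 8 endoplasmic reticulum assembly genes that rose (by 0.15, adjusted p = 0.041), and Cd80 the 1 of 4 costimulatory and checkpoint ligands (by 1.17, adjusted p = 0.021). Without KO replicate 2, KO replicate 3, WT replicate 2 or WT replicate 3 limma called 0 of these 51 genes, with 16, 16, 21 and 20 at an unadjusted p under 0.05.

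Markers of cells that normally carry class II were measured beside these genes. The dendritic cell markers Zbtb46, Cd209a, Siglech and Cd8a were at 0 in every library, and 9 of 12 markers stayed below 1 TPM throughout. The summed level was 30.1 to 38.9 TPM in KO and 13.9 to 18.0 TPM in WT. It was mostly Ly75, which rose by 1.13 on the log2 scale (limma adjusted p = 0.012). Ccr7 (0.6, 0.5 and 0.6 TPM in KO, against 0.2, 0.1 and 0.3 TPM in WT) also lay above all WT values. So did Fscn1 (0.7, 1.0 and 0.9 TPM, against 0.3 TPM in each WT library), and the other dendritic cell markers overlapped. The B cell markers Ms4a1, Cd22 and Cr2 were at 0 in every library. The summed list level was 28.9 to 34.3 TPM in KO and 19.5 to 23.1 TPM in WT. It was mostly Cd79b, which rose by 0.58 (limma adjusted p = 0.020). Cd79a had 1.0, 1.0 and 1.3 TPM in KO, against 0.5, 0.5 and 0.7 TPM in WT, and passed the filter only through its KO values. The other B cell markers overlapped between the groups. Of 10 macrophage markers Mertk, Marco and Cd163 were at 0 in every library, and 6 stayed below 1 TPM. Mrc1 had 0.6, 1.8 and 1.5 TPM in KO, against 0.1 TPM in each WT library. C1qa and C1qb were at 0.2 to 0.8 TPM in KO and at 0 in WT. The other macrophage markers overlapped between the groups. The summed level of all 10 was 93.0, 131 and 117 TPM in KO, against 111, 65.8 and 65.2 TPM in WT, mainly Adgre1 and Cd68. WT replicate 1 was the highest control in this sum but lay within the KO range, whereas its H2-Ab1 level was above every KO library. The parts of the sum differed. In WT replicate 1 Adgre1 (75.8 TPM, against 58.4, 60.8 and 56.4 TPM in KO) was above every KO library. So was Csf1r (1.4 TPM, against 0.8, 0.5 and 0.5 TPM in KO). Cd68 (33.3 TPM, against 32.7, 66.4 and 57.1 TPM in KO) lay within the KO range, and Mrc1, C1qa and C1qb lay below it. The part of these cells in the class II levels was not tested beyond these values.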

How the data were processed

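RNA sequencing of 6 mouse leukaemia libraries (3 KO, 3 WT, grouped by the sample titles) was used. Paired reads of 100 bp came from stranded poly(A) libraries, per the labels' protocols. The submitters' processing notes name mm10, featureCounts 1.6.2, STAR 2.6.1e, cutadapt 1.9.1 and Trim Galore 0.4.2. Annotation, strand setting and the step to TPM were not given in the sources used here. Values are TPM as deposited by the authors, rounded to 1 decimal, with library sums of 999924 to 999935; because the total is fixed, abundant transcripts that rise pull the rest down. Depth and counting error are unknown.

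Kept were 13575 genes with 1 TPM or more in 3 or more libraries (22294 left out). KO minus WT was fitted on log2(TPM + 1) with limma 3.58.1 (R 4.3.3) and no covariate. The eBayes step used a mean-variance trend, and two-sided p-values were adjusted by Benjamini-Hochberg over all kept genes (threshold 0.05). Fold changes on this scale understate weak genes. The procedure was tested on simulated data. Errors of levels are SD of 3 libraries. At most 8.48% of kept genes had equal values in any pair of libraries of a group, so no library was treated as a duplicate.

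Members and lists were chosen with earlier results of these data known. Named were all tested members, untested members reaching 1 TPM, and up to 4 called genes per pathway list in the majority direction and 2 in the other by adjusted p; Rfx5, overlapping genes and marker genes were named after their values were seen. Positions, promoters (RefSeq, GRCm38.p6, the assembly of mm10; all 49 members matched, 36 with a promoter window) and transcripts (GENCODE M21) came from reference tables. Motifs were searched on both strands. Alternatives were pseudocounts of 0.1, 0.5 and 5, other filters and scalings, eBayes variants, the replicate number as a block, and leaving out libraries.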

Additional observations from a re-analysis of the deposited data

How the results depend on the processing

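Direction and call stayed for all 29 tested members with pseudocounts of 0.1, 0.5 and 5 and with robust eBayes. With no filter on low values 16 members rose, 9 of them nonclassical. Of all 22884 genes tested in that fit 2730 rose and 667 fell. With a mean of at least 5 TPM, which leaves fewer weak genes, 6 of 24 tested members rose, 3 nonclassical and 1 class II. Of all 10041 genes tested there 883 rose and 695 fell. Median-ratio scaling gave 2 members that fell; quantile normalization gave 2 that fell and 3 nonclassical that rose. Without KO replicate 1 and WT replicate 1 together 18 members rose and 2 fell, with 1 classical and 6 class II genes higher and 32 pathway genes called, against 13 with all libraries. Over the fits that left out 1 library, the counts ran from 0 to 17 members higher, 0 to 2 lower, 0 to 2 classical, 0 to 6 nonclassical, 0 to 5 class II and 0 to 4 accessory genes higher, and 0 to 22 pathway genes called. Same-numbered KO and WT libraries did not deviate together (r = -0.20, -0.15 and -0.16 for numbers 1, 2 and 3). For libraries of different numbers r ran from -0.21 to 0.23. Deviations from the mean of 3 libraries are tied to each other, so these values cannot exclude that the numbers pair cultures. With the replicate number as a block 2 members rose and 1 fell (0 nonclassical, 1 class II and 1 accessory higher), 3 pathway genes were called, and limma had 14 members at an unadjusted p under 0.05. Calls were few over all genes too, with 300 of 13575 higher and 33 lower.

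Log2 fold changes that turned sign were those of Erap1 (-0.034), Tapbp (-0.037) and H2-K1 (-0.004) with median-ratio scaling, of H2-Ob (-0.028), H2-Q5 (-0.17) and H2-T10 (-0.05) with quantile normalization, and of Erap1 (-0.015), H2-T23 (0.073) and H2-M3 (0.13) without KO replicate 1 and WT replicate 1. Over the fits without 1 library they ran from -0.027 to 0.027 for Erap1, -0.09 to 0.18 for Tapbp, -0.083 to 0.19 for H2-K1, -0.13 to 0.60 for H2-Ob, -1.17 to 0.091 for H2-Ab1, -0.28 to 0.054 for H2-T23 and -0.093 to 0.16 for H2-M3. The reads counted per library are not given, so values under about 1 TPM carry an unknown counting error. The cause of these changes was not tested.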
